A study of Homo sapiens with 18 samples.

Results

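The genes described here are those on which FOXA1 knockdown and the compound KC7F2 acted non-additively in LNCaP cells. A gene entered when its KC7F2 change in FOXA1 knockdown cells differed from its KC7F2 change in control cells. The values were the deposited RPKM (read counts scaled to transcript length and library size), taken as log2(RPKM + 0.5). The interaction is the KC7F2 difference in FOXA1 knockdown cells minus the KC7F2 difference in control cells, so 0 means that the 2 changes add on the log2 scale. A gene was tested when 3 or more of the 18 libraries held 1 RPKM or more, which left 12900 genes. Of these, 10 (0.0775%) had an interaction with an adjusted p below 0.05 (limma, Benjamini-Hochberg over all genes tested). In 8 of them the interaction was negative, which is 0.062% of the genes tested, and in 2 it was positive, which is 0.0155%. At an unadjusted p below 0.05 there were 872 of the 12900 genes. Without any interaction a share of about 0.05 would fall there, so the 872 are not read as interactions. The 8 with a negative interaction were KRT16, ENC1, NRCAM, CD24, S100A9, ATP2B1, COL17A1 and ITGA6, and the 2 with a positive one were MAF and ENDOD1.

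LNCaP is a line of human prostate adenocarcinoma cells that keeps luminal features and a response to androgen. The 12 libraries of the interaction form 4 groups of 3: the pGIPZ control shRNA virus, the same virus with KC7F2, the shFOXA1 virus, and shFOXA1 with KC7F2. Lentiviral infection lasted 5 days. KC7F2 was given at 40 µM for the last 24 h, and the labels name no vehicle for the cells without it. Cobalt chloride at 100 µM was present for the same 24 h in every group, the controls included, so no group is without it. The other 6 libraries, of the shHIF1A virus alone and of both shRNA viruses together, entered the fit and are used once below. The labels do not say that the 3 libraries of a group came from separate cultures, nor how many shRNA sequences were used per gene, and the p-values therefore rest on the spread among libraries, which may be technical.

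FOXA1 is a forkhead pioneer factor that opens chromatin for other transcription factors and helps to hold prostate cells in a luminal state. HIF1A is the oxygen-regulated subunit of hypoxia-inducible factor 1. Cobalt blocks the prolyl hydroxylases that mark HIF1A for degradation, which switches on genes of glycolysis, angiogenesis and matrix handling. KC7F2 is a small molecule described as lowering HIF1A protein synthesis. The study's design sets FOXA1 knockdown beside genetic and chemical inhibition of HIF1A, and the interaction asks for which genes the chemical inhibitor does something different once FOXA1 is reduced.

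The 2 targets were checked first. FOXA1 was at 71.6, 114 and 107 RPKM in control cells and at 97.6, 125 and 86.1 RPKM in control cells with KC7F2. It was at 35.1, 32.4 and 34.8 RPKM in FOXA1 knockdown cells and at 41.2, 42.6 and 34.0 RPKM when KC7F2 was added. The knockdown libraries lay below every control library, with means of 34.1 and 97.5 RPKM. FOXA1 itself had an interaction of 0.11 ± 0.22 (SE, 95% interval -0.37 to 0.58, adjusted p = 0.971). HIF1A was at 14.0, 27.3 and 28.0 RPKM in control cells, at 15.1, 23.2 and 13.5 RPKM with KC7F2, at 88.6, 81.6 and 99.5 RPKM after FOXA1 knockdown, and at 69.9, 68.0 and 50.6 RPKM after knockdown with KC7F2. HIF1A mRNA was thus higher in all FOXA1 knockdown libraries than in all controls, and its interaction was -0.14 ± 0.33 (SE, 95% interval -0.84 to 0.55, adjusted p = 0.974).

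Estimated depth, from the steps between low RPKM values, ran from 3289000 to 12110000 reads per library, and was lower after FOXA1 knockdown (6356000 ± 1270000 reads, SD, n = 3) and after knockdown with KC7F2 (8260000 ± 1352000) than in control cells (11120000 ± 678700) and control cells with KC7F2 (11020000 ± 1168000). In 3 libraries short genes had more signal than long ones: control replicate 1 and KC7F2-treated control replicates 1 and 3, at 0.474, 0.436 and 0.34 (log2), against -0.192 to 0.127 in the other libraries. The LNCaP markers FOLH1, KRT8, KRT18, HOXB13, EPCAM and KLK3 were expressed in all libraries. The 16 markers of fibroblast, blood, endothelial and neuroendocrine cells summed to 10.64 to 12.26 RPKM in control cells, 9.478 to 11.01 RPKM with KC7F2, 21.42 to 23.33 RPKM in FOXA1 knockdown cells and 15.11 to 17.27 RPKM after knockdown with KC7F2. Among them CD68, a lysosomal protein that is not limited to macrophages, was at 4.391 to 19.31 RPKM, and COL1A2 was at 0 throughout. Fewer cells of a kind and less RNA per cell cannot be told apart in such bulk libraries.

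Promoters of the non-additive genes are shown first. Of the 8 that have an entry in the RefSeq table (GRCh38.p14), 4 hold the letters TATAAA on either strand. That search was added after the sequences were seen, and position and strand differ between the 4. The table covers 250 bases before to 50 after each start, and had no entry for KRT16 and ENC1. TATAAA on either strand was found in the windows of S100A9, ITGA6, COL17A1 and MAF, against 5.23% of the 9254 promoters of genes tested. The bases before the start are given below 5′ to 3′ on the gene's strand, with each motif searched and found in capitals. In COL17A1, 77 bases that a GENCODE exon covers were left out.
S100A9, plus strand, chr1:153357604-153357853: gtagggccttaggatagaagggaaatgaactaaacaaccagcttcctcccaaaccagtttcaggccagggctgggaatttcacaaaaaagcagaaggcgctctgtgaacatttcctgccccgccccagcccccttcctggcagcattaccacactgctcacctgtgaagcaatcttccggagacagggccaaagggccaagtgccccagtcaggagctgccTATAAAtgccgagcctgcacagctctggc
COL17A1, minus strand, chr10:104085958-104086130: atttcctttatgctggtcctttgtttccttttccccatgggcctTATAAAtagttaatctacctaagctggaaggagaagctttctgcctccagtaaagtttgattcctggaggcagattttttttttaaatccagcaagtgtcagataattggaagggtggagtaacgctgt
ITGA6, plus strand, chr2:172427086-172427335: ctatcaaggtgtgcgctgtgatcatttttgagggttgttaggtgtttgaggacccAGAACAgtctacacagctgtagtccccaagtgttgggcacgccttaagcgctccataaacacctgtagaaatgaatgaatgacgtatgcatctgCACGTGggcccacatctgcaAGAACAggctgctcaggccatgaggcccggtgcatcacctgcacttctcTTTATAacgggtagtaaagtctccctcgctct
MAF, minus strand, chr16:79600738-79600987: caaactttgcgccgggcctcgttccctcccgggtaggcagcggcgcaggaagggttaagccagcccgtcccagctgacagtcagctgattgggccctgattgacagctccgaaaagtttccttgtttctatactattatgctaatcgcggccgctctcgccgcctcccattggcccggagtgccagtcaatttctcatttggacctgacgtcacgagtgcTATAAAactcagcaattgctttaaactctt
The TATA letters begin 29 bases before the start in S100A9, 30 before it in MAF and 32 before it in ITGA6, where they read TTTATA on the printed strand, but 206 before it in COL17A1. Only ITGA6 among the 4 also held ACGTG, the core of the hypoxia response element, which begins at -100 and, read on the other strand, at -101, and the androgen half-site AGAACA at -195 and -81.

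Each of the other motifs was found in 2 of the 8 promoters or fewer. ACGTG was in the promoters of ITGA6 and ATP2B1, 2 of 8, against 27.3% of all promoters. TGACNNNGC, an antioxidant response core, was in CD24 and ATP2B1, against 15.6%. AGAACA was in ITGA6 alone, against 8.67%. No match was found for TGTTTAC (forkhead, 2.2% of all promoters), TGATGNAA (ATF4 composite, 1.52%), GAANNTTC (heat shock core, 4.45%) or TGANTCA (AP-1, 4.43%). AP-1 and the androgen half-site were added after the results were known, and the TATA box after the sequences were seen, so the TATA count is a description of the genes that prompted it. These are matches of letters and not binding sites.

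KC7F2 changed 263 genes in control cells (135 higher, 128 lower, 2.04% of those tested) and 526 in FOXA1 knockdown cells (220 higher, 306 lower, 4.08%). With median-ratio scaling the split in control cells became 101 higher and 195 lower, and with quantile normalization 105 and 172. Passing in only 1 background was far more frequent than a tested difference. With KC7F2, 246 genes were lower in knockdown cells without passing in control cells, and 144 were higher. In control cells 67 were lower and 60 higher without passing in knockdown cells. Both lists shared 60 lower and 75 higher genes. The plot of the KC7F2 change in both backgrounds places the 8 negative genes in a column near 0 in control cells. Of these, KRT16, NRCAM and COL17A1 had a few reads or none in control cells, where a fall could not have been seen.

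**Figure D1:**
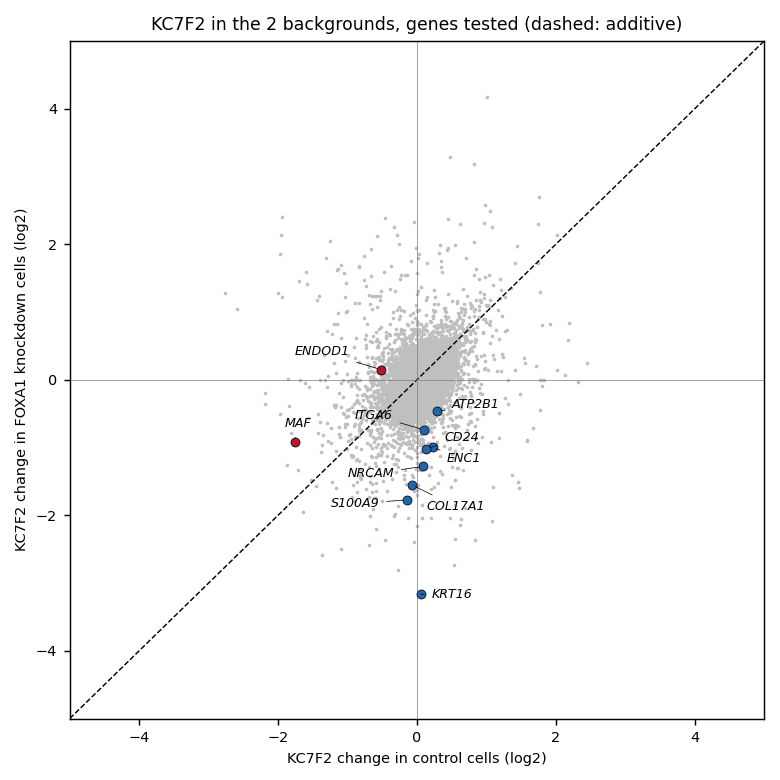
KC7F2 change (log2) in control cells on the x axis and in FOXA1 knockdown cells on the y axis, 1 grey point for each of the 12900 genes tested; the dashed line marks equal changes. The 8 genes with a negative interaction (blue) lie below the line at control values between -0.15 and 0.29, and MAF and ENDOD1 (red) lie above it.

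All 8 negative genes had the same form, which is a description only, because the libraries compared here also chose them. A negative interaction favours a high level after FOXA1 knockdown and a fall with KC7F2 there. KRT16, NRCAM and COL17A1 also passed the filter only through libraries with FOXA1 knockdown. The shares of all genes below are given for scale, and nothing is read from them. FOXA1 knockdown raised each of the 8 without KC7F2 (9.52% of all genes tested were raised). KC7F2 lowered each in knockdown cells (2.37% of all genes were lowered) and changed none of them past the threshold in control cells. In KRT16, NRCAM and COL17A1, with a few reads or none in control libraries, a fall with KC7F2 could not have been seen there. S100A9 held no more than about 8.02 reads in any control library. With KC7F2 present, FOXA1 knockdown raised the 8 genes as well, except CD24, which did not pass. Over all genes tested 32.9% were changed and 8.88% raised. The share of the RPKM rise left with KC7F2 ran from 9.30% in CD24 to 53.5% in ATP2B1. Each gene is given below in the order of its role, with values for replicates 1 to 3 of each group.

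**Figure D2:**
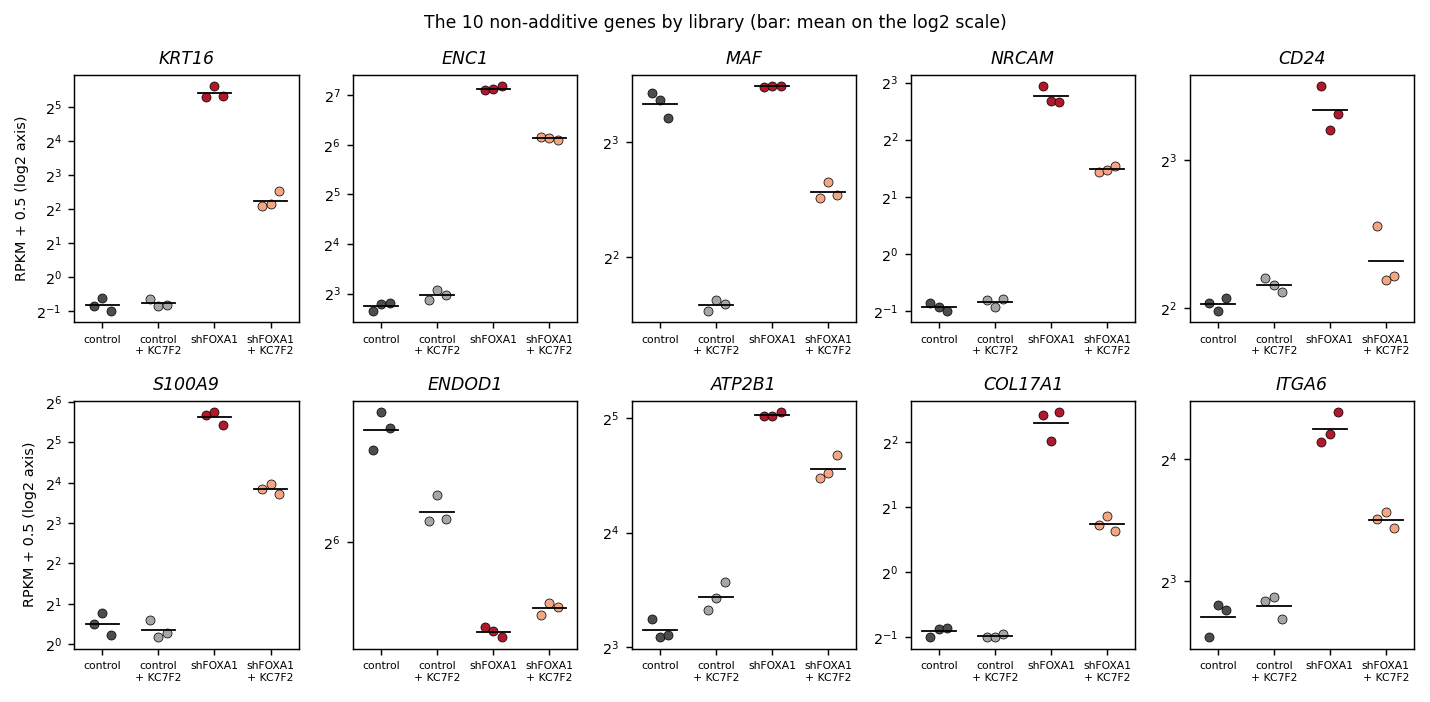
RPKM + 0.5 on a log2 axis for the 10 non-additive genes, 1 point per library in 4 groups of 3, with a bar at the mean on the log2 scale. In the 8 genes with a negative interaction the 3 libraries of FOXA1 knockdown with KC7F2 lie below all 3 of FOXA1 knockdown alone; in MAF and ENDOD1 the gap between the control groups is the wider one.

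Keratin 16 is an intermediate filament protein of activated and wounded stratified epithelium. KRT16 (chr17:41609778-41615899, hg38, minus strand) was at 0.0513, 0.151 and 0 RPKM in control cells and at 0.145, 0.0524 and 0.0601 RPKM in control cells with KC7F2. It was at 39.0, 49.2 and 39.5 RPKM after FOXA1 knockdown and at 3.74, 3.92 and 5.32 RPKM after knockdown with KC7F2. The control groups overlap near 0, at no more than about 4.34 reads per library, while every knockdown library without KC7F2 is above every one with it. KC7F2 lowered KRT16 in knockdown cells by 8.97-fold on the log2(RPKM + 0.5) scale (log2 -3.17 ± 0.17 SE, adjusted p = 1.65e-08). The interaction was -3.22 ± 0.24 (SE, 95% interval -3.72 to -2.71, adjusted p = 4.92e-06), and 9.97% of the RPKM rise was left. Pseudogenes of KRT16 are close in sequence, and how the deposited counting treated shared reads is not given in the sources used here.

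Collagen XVII and integrin alpha 6 are transmembrane parts of the hemidesmosome, which anchors basal epithelial cells to the basement membrane. COL17A1 (chr10:104031286-104085957, minus strand) was at 0, 0.0462 and 0.0518 RPKM in control cells and at 0, 0 and 0.0184 RPKM with KC7F2. After FOXA1 knockdown COL17A1 was at 4.84, 3.56 and 5.03 RPKM, and with KC7F2 added at 1.16, 1.33 and 1.06 RPKM. The control libraries hold no more than about 3.79 reads of COL17A1 each, so its interaction of -1.48 ± 0.26 (SE, 95% interval -2.03 to -0.93, adjusted p = 0.0469) is in effect the fall in knockdown cells (-1.55 ± 0.18, adjusted p = 8.94e-05).

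ITGA6 (chr2:172427354-172506282, plus strand) started from a measurable level. It was at 5.33, 6.51 and 6.32 RPKM in control cells, 6.65, 6.81 and 5.97 RPKM with KC7F2, 17.1, 18.0 and 20.4 RPKM after FOXA1 knockdown, and 10.9, 11.4 and 10.3 RPKM after knockdown with KC7F2. The control groups overlap and the knockdown groups do not. KC7F2 changed ITGA6 by 0.09 ± 0.10 (log2, SE) in control cells (adjusted p = 0.772) and lowered it by 0.74 in knockdown cells (SE 0.10, adjusted p = 0.000406). Its interaction was -0.83 ± 0.15 (95% interval -1.14 to -0.52, adjusted p = 0.0469), with 35.3% of the rise left.

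S100A9 is a calcium-binding alarmin that pairs with S100A8 to form calprotectin. S100A9 (chr1:153357854-153361027, plus strand) was at 0.915, 1.20 and 0.672 RPKM in control cells and at 1.00, 0.624 and 0.715 RPKM with KC7F2. FOXA1 knockdown brought it to 50.6, 53.4 and 42.6 RPKM, and KC7F2 in knockdown cells to 13.8, 15.3 and 12.7 RPKM. KC7F2 lowered S100A9 by 3.42-fold in knockdown cells (log2 -1.78 ± 0.20 SE, adjusted p = 3.96e-05) against -0.15 ± 0.20 in control cells (adjusted p = 0.802). The interaction was -1.62 ± 0.28 (SE, 95% interval -2.21 to -1.04, adjusted p = 0.045). Its partner S100A8 was at 0 in all 3 control libraries, at 16.4, 19.7 and 10.4 RPKM after knockdown and at 0.416, 2.86 and 1.31 RPKM after knockdown with KC7F2. With its wider spread S100A8 did not pass (interaction -3.50 ± 0.65, adjusted p = 0.0542).

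ENC1 encodes a kelch-repeat protein that binds actin and adapts substrates to a ubiquitin ligase. ENC1 (chr5:74627406-74641424, minus strand) was already expressed in control cells. It was at 5.78, 6.42 and 6.48 RPKM in control cells, 6.79, 7.90 and 7.38 RPKM with KC7F2, 136, 139 and 146 RPKM after FOXA1 knockdown, and 71.4, 69.7 and 68.2 RPKM after knockdown with KC7F2. No 2 groups overlap: KC7F2 libraries are slightly higher than their controls and lower than their knockdown counterparts. The KC7F2 change was 0.22 ± 0.08 (log2, SE) in control cells (adjusted p = 0.235) and -1.0 ± 0.08 in knockdown cells (adjusted p = 2.37e-06). The interaction was -1.22 ± 0.12 (95% interval -1.47 to -0.98, adjusted p = 7.2e-05), and 46.6% of the rise was left.

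NRCAM, a neuronal cell adhesion molecule of the immunoglobulin family, was nearly absent without FOXA1 knockdown. NRCAM (chr7:108147623-108456717, minus strand) was at 0.0527, 0.0258 and 0 RPKM in control cells and 0.0743, 0.0269 and 0.0772 RPKM with KC7F2. It was at 7.19, 5.86 and 5.84 RPKM after knockdown and at 2.21, 2.26 and 2.39 RPKM after knockdown with KC7F2. KC7F2 lowered NRCAM in knockdown cells (log2 -1.28 ± 0.16 SE, adjusted p = 0.000105), and the interaction was -1.37 ± 0.22 (95% interval -1.83 to -0.90, adjusted p = 0.0374). For KRT16, NRCAM and COL17A1, with a few reads or none in control libraries, no fold against control is given, and the fitted log2 values depend on the 0.5 added.

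CD24 is a small glycosylated surface protein used as a marker of luminal and progenitor epithelium. CD24 (chr6:106969831-106975627, minus strand) was at 3.59, 3.44 and 3.68 RPKM in control cells, 4.11, 3.96 and 3.82 RPKM with KC7F2, 10.9, 8.71 and 9.42 RPKM after FOXA1 knockdown, and 5.37, 4.07 and 4.15 RPKM after knockdown with KC7F2. It is the one gene of the 8 whose FOXA1 knockdown change no longer passed with KC7F2: 1.31 ± 0.14 (log2, SE, adjusted p = 2.37e-06) without it and 0.16 ± 0.14 (adjusted p = 0.383) with it. The interaction was -1.15 ± 0.19 (95% interval -1.56 to -0.74, adjusted p = 0.045). CD24 has processed copies elsewhere in the genome, so its level is uncertain where reads were shared.

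ATP2B1, the plasma membrane pump that exports calcium, had the smallest interaction of the 8. ATP2B1 (chr12:89588049-89709300, minus strand) was at 9.03, 8.01 and 8.11 RPKM in control cells, 9.50, 10.3 and 11.4 RPKM with KC7F2, 31.9, 31.8 and 32.6 RPKM after knockdown, and 21.8, 22.5 and 25 RPKM after knockdown with KC7F2. The KC7F2 groups sit above the controls and below the knockdown libraries, without overlap. KC7F2 changed ATP2B1 by 0.29 ± 0.09 (log2, SE) in control cells (adjusted p = 0.155) and by -0.47 ± 0.09 in knockdown cells (adjusted p = 0.0076), and the interaction was -0.76 ± 0.13 (95% interval -1.04 to -0.48, adjusted p = 0.045).

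MAF and ENDOD1 had positive interactions. KC7F2 lowered MAF more in control cells than in knockdown cells, and ENDOD1 passed as lowered in control cells alone. MAF is a basic leucine zipper transcription factor and stands on the list of androgen-responsive genes used here. MAF (chr16:79585843-79600714, minus strand) was at 10.3, 9.79 and 8.75 RPKM in control cells, 2.38, 2.58 and 2.50 RPKM with KC7F2, 10.6, 10.7 and 10.7 RPKM after FOXA1 knockdown, and 5.20, 5.80 and 5.31 RPKM after knockdown with KC7F2. Without KC7F2 the knockdown did not change MAF past the threshold (log2 0.15 ± 0.09 SE, adjusted p = 0.226), while with KC7F2 every knockdown library was above every control library (0.99 ± 0.09, adjusted p = 3.79e-07). KC7F2 lowered MAF in both backgrounds, by 1.76 in control cells (SE 0.09, adjusted p = 9.44e-09) and by 0.92 in knockdown cells (SE 0.09, adjusted p = 9.71e-06). The interaction was 0.84 ± 0.12 (95% interval 0.58 to 1.10, adjusted p = 0.0167).

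ENDOD1 encodes a protein with an endonuclease-like domain. ENDOD1 (chr11:95089810-95132645, plus strand) was at 95.3, 113 and 105 RPKM in control cells, 69.6, 78.1 and 70.3 RPKM with KC7F2, 43.7, 42.9 and 41.6 RPKM after FOXA1 knockdown, and 46.0, 48.6 and 47.6 RPKM after knockdown with KC7F2. KC7F2 lowered it in control cells (log2 -0.52 ± 0.08 SE, adjusted p = 0.00167), and in knockdown cells the change was 0.15 ± 0.08 (adjusted p = 0.413). FOXA1 knockdown lowered ENDOD1 without KC7F2 (-1.27 ± 0.08, adjusted p = 8.33e-09) and with it (-0.61 ± 0.08, adjusted p = 3.46e-05). The interaction was 0.66 ± 0.11 (95% interval 0.42 to 0.91, adjusted p = 0.045).

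KRT16 and ENC1 kept their calls in all 12 other settings and without each of the 12 libraries in turn. KRT16 held no more than about 4.34 reads in any control library, with or without KC7F2. No fall could be seen there, so in every setting and omission its interaction mainly repeats the fall in knockdown cells. MAF kept its call in 10 of 12 settings and in 6 of 12 such omissions; it was lost without control replicate 2, KC7F2-treated control replicates 1 and 3, knockdown replicates 1 and 3, and KC7F2-treated knockdown replicate 2. The other 7 lay between adjusted p 0.0374 and 0.0469 and are weak calls. All 7 were lost with a pseudocount of 0.1 and with only the 4 groups fitted. CD24, ATP2B1, COL17A1 and ITGA6 were also lost with median-ratio scaling, and CD24, S100A9, ATP2B1 and COL17A1 with the replicate number as a block. ENDOD1 was lost with quantile normalization and robust eBayes, and NRCAM with a filter of at least 5 RPKM. ITGA6 passed in none of the 12 omissions. NRCAM, S100A9, ENDOD1 and ATP2B1 passed only without control replicate 1, COL17A1 only without knockdown replicate 2, and CD24 only without control replicate 1, knockdown replicate 2 or KC7F2-treated knockdown replicate 1. When the 3 libraries with raised short-gene signal were left out, KRT16 and ENC1 were the 2 genes that passed. The direction of the interaction held for all 10 in every setting in which the gene was tested.

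**Figure D3:**
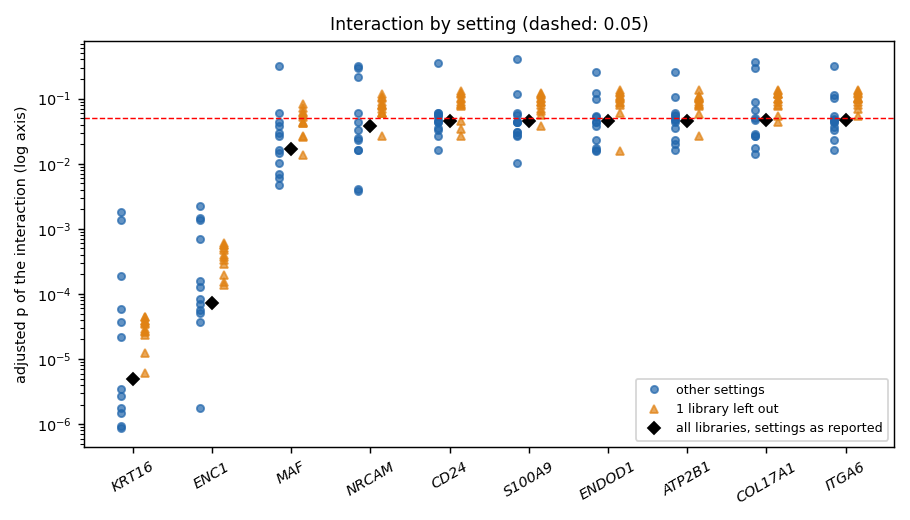
Adjusted p of the interaction on a log axis for each of the 10 non-additive genes, under the 12 other settings (blue points), with 1 library left out (orange triangles) and as reported (black diamonds); the dashed line is 0.05. KRT16 and ENC1 stay below the line throughout, while most omissions put the other genes, MAF in part, above it.

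The genes just outside the threshold include relatives of those inside. The next 13 had adjusted p between 0.0534 and 0.0604, and none of them is counted as non-additive. KRT6B, a keratin partner of KRT16 in stressed epithelium, was at 20.5, 23.2 and 20.9 RPKM after FOXA1 knockdown and at 3.76, 4.06 and 2.90 RPKM after knockdown with KC7F2 (interaction -1.75 ± 0.32 SE, adjusted p = 0.0542). KRT6C had an interaction of -1.92 ± 0.36 (adjusted p = 0.0543), and since KRT6A, KRT6B and KRT6C are nearly identical their reads may be shared. MGP, an inhibitor of matrix calcification, fell in knockdown cells from 16.3, 14.6 and 8.93 RPKM to 2.95, 3.14 and 2.40 RPKM with KC7F2 (log2 -2.01, adjusted p = 6.04e-05), with an interaction of -1.68 ± 0.33 (adjusted p = 0.0565). IRF1, ASS1, ELOVL6 and TESC also had negative values, from -0.80 to -1.49.

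ACSL3, FKBP5, SOAT1 and EFNA5 lay on the positive side, at 0.64, 0.78, 0.64 and 0.69 (adjusted p = 0.0534, 0.0542, 0.055 and 0.0552). FKBP5, a co-chaperone and classical androgen-induced gene, was at 20.9, 28.2 and 25.6 RPKM in control cells, 8.30, 9.52 and 9.35 RPKM with KC7F2, 59.5, 62.9 and 64.0 RPKM after knockdown and 41.1, 40.2 and 39.4 RPKM after knockdown with KC7F2. ACSL3, which activates long-chain fatty acids, was the only gene of those tested that KC7F2 lowered in control cells (log2 -0.34, adjusted p = 0.0417) and raised in knockdown cells (0.30, adjusted p = 0.0497). Its interaction of 0.64 ± 0.12 nonetheless stayed outside the threshold.

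By gene list, the counts of called members were small. The 14 genes listed as basal epithelial markers include KRT16, KRT6A and KRT6B, which are keratins of stressed epithelium. Of the 14, 9 were tested, and KRT16, COL17A1 and ITGA6 passed with negative interactions, against 0.062% of all genes. The median interaction of the 9 was -0.83, and that of all genes tested was -0.072. KC7F2 lowered 6 of the 9 in knockdown cells and 0 in control cells, where 2.37% and 0.992% of all genes were lowered. Several of these genes, KRT16 and KRT6B among them, reached the filter only through the FOXA1 knockdown libraries in which they were high, so neither the median nor the counts support anything about the list. LAMB3, a laminin-332 chain, was at 15 RPKM ± 0.207 (SD, n = 3) after knockdown and 9.0 ± 0.165 with KC7F2, with an interaction of -0.52 ± 0.18 (adjusted p = 0.482), while LAMA3 had 0.14 ± 0.24 (adjusted p = 0.962). The defining basal genes KRT5 and TP63 were at 0 in all 12 libraries and at no more than 0.01991 RPKM, respectively. The 14 summed to 18.73 to 25.73 RPKM in control cells, 22.25 to 29.68 RPKM with KC7F2, 115.5 to 132.1 RPKM after knockdown and 50.85 to 56.22 RPKM after knockdown with KC7F2.

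The list of secreted and stress proteins of epithelium had 1 called member. Of its 14 genes 10 were tested, S100A9 had a negative interaction (0.062% of all genes), and the median was -1.20 against -0.072 over all genes. KC7F2 lowered 9 of the 10 in knockdown cells and 2 in control cells, where 2.37% and 0.992% of all genes were lowered. Members such as S100A8 and SAA2 passed the filter only through libraries with FOXA1 knockdown, where they are high, so nothing about the list is read from these counts or the median. PI3, the elastase inhibitor elafin, was at 98.2, 91.9 and 71.9 RPKM after FOXA1 knockdown and at 13.7, 12.9 and 15.7 RPKM with KC7F2. KC7F2 also lowered PI3 in control cells (log2 -1.38, adjusted p = 0.00147, against -2.58 in knockdown cells, adjusted p = 2.37e-06), and the interaction was -1.20 ± 0.30 (adjusted p = 0.171). SLPI, LCN2, SAA2 and PIP had interactions of -1.20, -0.91, -0.91 and -1.90, with adjusted p from 0.254 to 0.303.

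**Figure D4:**
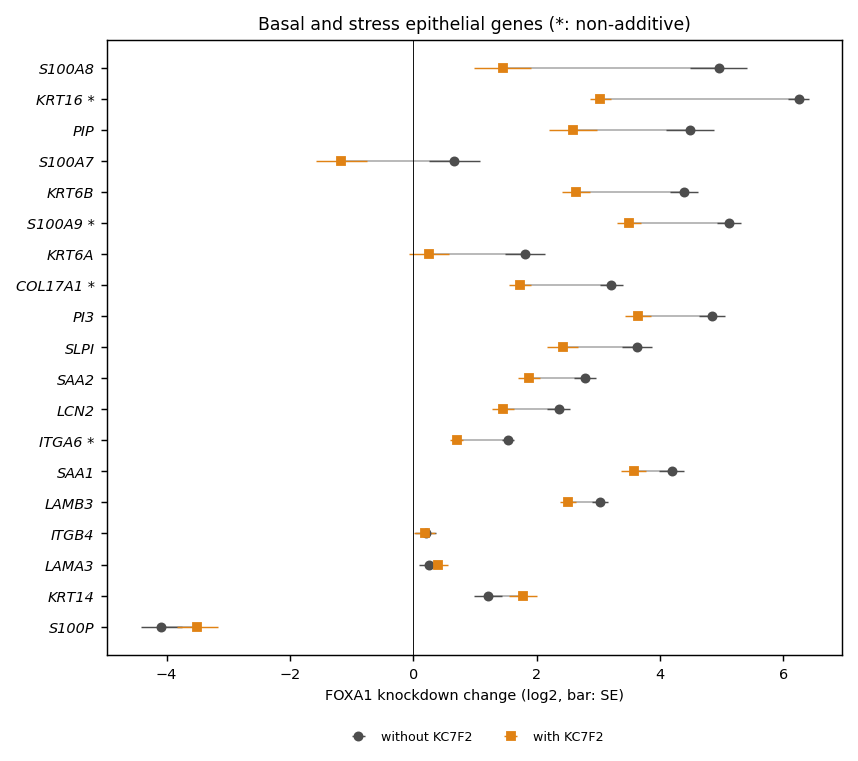
FOXA1 knockdown change (log2, bars are SE) without KC7F2 (grey circles) and with KC7F2 (orange squares) for the 19 tested basal epithelial and stress secretion genes; the distance between the 2 points of a gene is its interaction, and asterisks mark the 4 non-additive ones. Most orange squares lie left of the grey circles, by 3.22 in KRT16, while KRT14, LAMA3 and S100P lie the other way without passing the test.

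The androgen-responsive genes had a median of the opposite sign. The list was chosen with earlier results of these data known, so neither its median nor its counts support anything about it. Of 31 listed genes 28 were tested, MAF was the only called member (0.0155% of all genes were called higher), and the median interaction was 0.387, with 5 of the 28 below 0. KC7F2 lowered 16 of them in control cells (0.992% of all genes) and 11 in knockdown cells (2.37%). It raised 2 in each background, where 1.05% and 1.71% of all genes were raised. KLK2, a secreted kallikrein protease, was at 60.4, 50.9 and 44.0 RPKM in control cells and 26.0, 27.6 and 30.5 RPKM with KC7F2, but at 46.6, 53.5 and 46.6 RPKM after knockdown and 43.7, 43.5 and 48.6 RPKM after knockdown with KC7F2. Its interaction was 0.75 ± 0.16 (adjusted p = 0.109). KLK3, which encodes prostate-specific antigen, fell with KC7F2 in control cells (-0.66, adjusted p = 0.0125) and changed by 0.00 in knockdown cells (adjusted p = 0.997), with an interaction of 0.66 ± 0.19 (adjusted p = 0.282). TRPM8 and ELL2 had 0.66 ± 0.14 and 0.44 ± 0.10 (adjusted p = 0.108 and 0.115). UGT2B15, a steroid glucuronosyltransferase, was on the other side: KC7F2 raised it in control cells (0.98, adjusted p = 0.00183), and its interaction was -0.81 ± 0.22 (adjusted p = 0.251).

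**Figure D5:**
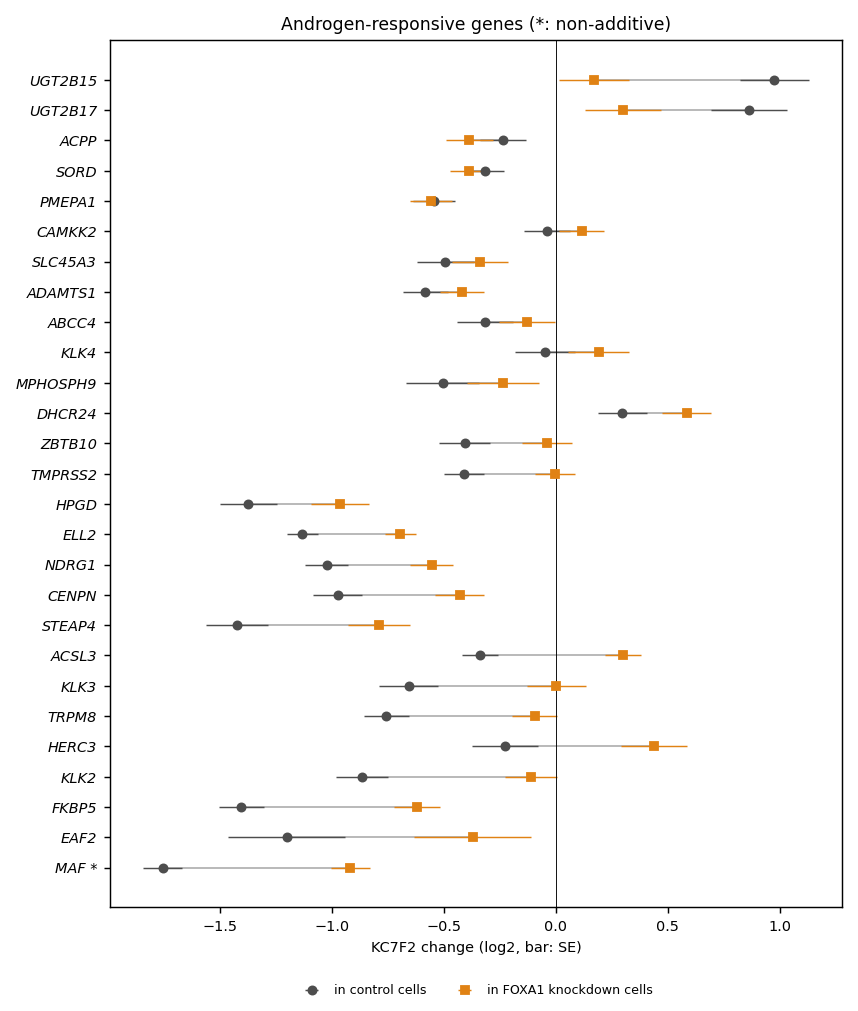
KC7F2 change (log2, bars are SE) in control cells (grey circles) and in FOXA1 knockdown cells (orange squares) for 27 of the 28 tested androgen-responsive genes, ordered by interaction; the asterisk marks MAF. In 22 of these 27 the orange square lies right of the grey circle, and only in MAF did that difference pass the test.

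No other list held a non-additive gene. Of 38 hypoxia targets 31 were tested, with a median of -0.0802. KC7F2 lowered 5 of them in control cells and 6 in knockdown cells, beside 0.992% and 2.37% of all genes. P4HA2, a collagen prolyl hydroxylase, had the smallest p among them and an interaction of -0.77 ± 0.18 (adjusted p = 0.134). All 21 glycolysis enzymes were tested, with a median of -0.356. LDHA, which makes lactate, was lowered in knockdown cells (351 RPKM ± 9.39 to 225 ± 4.5, SD, n = 3), and its interaction was -0.40 ± 0.15 (adjusted p = 0.573). Of 26 NRF2 targets tested, genes of the antioxidant response, KC7F2 raised 14 in control cells and 17 in knockdown cells, where the background shares are 1.05% and 1.71%. This list too was chosen with earlier results of these data known, so these are counts only. SLC7A11, the cystine importer, came nearest among them (0.71 ± 0.15, adjusted p = 0.0981). The chemokine CXCL8 had -0.94 ± 0.33 (adjusted p = 0.507).

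The same 10 genes can be set beside the interaction of FOXA1 knockdown with HIF1A knockdown. That interaction uses the same control and FOXA1 knockdown libraries, so the values are given side by side without a measure of likeness. HIF1A was at 3.06 to 4.28 RPKM with shHIF1A and at 4.07 to 4.56 RPKM with both shRNAs. FOXA1, however, was at 59.3 to 70.7 RPKM with both shRNAs, above the 32.4 to 35.1 RPKM of FOXA1 knockdown alone, so the FOXA1 knockdown was weaker there. The interaction with HIF1A knockdown was -2.65 ± 0.24 in KRT16 (SE, adjusted p = 3.68e-06), -2.65 ± 0.12 in ENC1 (adjusted p = 7.85e-10), -1.73 ± 0.22 in NRCAM (adjusted p = 0.000102), -2.31 ± 0.19 in CD24 (adjusted p = 1.64e-06) and -2.89 ± 0.28 in S100A9 (adjusted p = 6.6e-06). It was -0.55 ± 0.13 in ATP2B1 (adjusted p = 0.0162), -1.86 ± 0.26 in COL17A1 (adjusted p = 0.000247), -1.38 ± 0.15 in ITGA6 (adjusted p = 1.84e-05), 1.08 ± 0.11 in ENDOD1 (adjusted p = 1.84e-05) and 0.10 ± 0.12 in MAF (adjusted p = 0.681). Over all genes tested, 7.61% passed in that interaction, 4.45% lower and 3.16% higher.

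The difference between the 2 interactions shares no library between its sides, but its KC7F2 libraries also chose the 10 genes. Their values in it are therefore a description, and nothing is read from the 6 of 10 that passed beside the 5.88% of all genes tested (3.22% lower, 2.66% higher). The depth of the FOXA1 knockdown also differed between the sides. FOXA1 was at 34.0 to 42.6 RPKM in knockdown cells with KC7F2 and at 59.3 to 70.7 RPKM with both shRNAs. How far this enters the differences below was not tested. HIF1A knockdown had the more negative interaction in ENC1 (difference 1.42 ± 0.12 SE, adjusted p = 2.04e-06), S100A9 (1.27 ± 0.28, adjusted p = 0.0119), CD24 (1.16 ± 0.19, adjusted p = 0.00172) and ITGA6 (0.55 ± 0.15, adjusted p = 0.0363). ENC1, for example, was at 45.4, 45.2 and 48.0 RPKM with both shRNAs, below the 71.4, 69.7 and 68.2 RPKM of FOXA1 knockdown with KC7F2, and at 12.7, 14.7 and 13.2 RPKM with shHIF1A alone. ENDOD1 had the larger positive interaction with HIF1A knockdown (-0.41 ± 0.11, adjusted p = 0.0435), and its RPKM with both shRNAs was 104, 100.1 and 96.4, at the level of control cells.

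MAF differed in the other sense (0.74 ± 0.12, adjusted p = 0.00165). HIF1A knockdown lowered MAF to 2.23, 2.39 and 2.58 RPKM in control cells and to 2.99, 2.89 and 2.98 RPKM in FOXA1 knockdown cells, while with KC7F2 the knockdown libraries stayed at 5.20 to 5.80 RPKM. In KRT16, NRCAM, ATP2B1 and COL17A1 the difference did not pass, with 95% intervals of -1.07 to -0.05, -0.10 to 0.83, -0.49 to 0.07 and -0.17 to 0.93. COL17A1 was also at 0.844, 1.28 and 0.641 RPKM with shHIF1A alone, where control cells were at 0 to 0.0518 RPKM.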

How the data were processed

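RNA-seq libraries of LNCaP cells were made with the NEBNext Ultra RNA kit, per the labels' protocols. STAR and hg38 are named in the submitters' processing notes. Versions, gene annotation, strand setting and treatment of shared reads: not given in the sources used here. In 1 table the authors deposited RPKM values for 18 libraries, with 26475 lines, of which 32 hold no values; 0 columns lacked a sample. Raw counts were not used here, so no count test was run.

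All 6 groups of 3 were fitted together in limma 3.58.1 (R 4.3.3) on log2(RPKM + 0.5) as a cell-means model with 12 residual degrees of freedom, a trended eBayes prior and two-sided tests, adjusted by Benjamini-Hochberg over the 12900 genes at or above 1 RPKM in 3 or more libraries. Sharing 1 estimate of the spread over 18 libraries matters here (2 genes pass with only the 4 groups fitted). The fit was also run on simulated data with independent normal noise on the log2 scale. That simulation had no floor, no depth difference and no shift of short genes, so it does not bear on those features. Depth was estimated in Python 3.11.15 from genes of at most 200 nt, whose values were whole multiples of 1 read within 2.0% for 79.1% to 89.4% of values; the read numbers quoted for genes are approximate. Positions are from GENCODE 29 and matched 94.6% of the genes tested.

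Named genes are FOXA1 and HIF1A, all genes past the threshold whose mean reached 2 RPKM in 1 group, the next genes by p, and members of the fixed lists. The members and lists were chosen with earlier results of these data known, so all list counts and medians are descriptions only. The difference between the 2 interactions was added after seeing the data. Some genes are not reported here.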

Additional observations from a re-analysis of the deposited data

How the results depend on the processing

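Against 8 negative and 2 positive interactions as reported, the numbers were 2 and 1 with a pseudocount of 0.1, 20 and 7 with a pseudocount of 1, 18 and 9 with no filter, 4 and 4 with median-ratio scaling, 16 and 9 with quantile normalization, 2 and 0 with only the 4 groups fitted, 20 and 8 with each library's trend on length and GC removed, 20 and 4 without small RNA genes, and 2 and 0 without the 3 libraries with raised short-gene signal. Robust eBayes left 1 positive. Leaving out 1 library gave 2 to 16 negative and 0 to 7 positive interactions. The KC7F2 count in control cells ranged from 150 to 497 (497 without control replicate 1) and was 67 without those 3 libraries; that in FOXA1 knockdown cells ranged from 306 to 643. The cause of these shifts was not tested. Over omissions of 1 library the interaction of FOXA1 ran from -0.020 to 0.313 and that of HIF1A from -0.313 to 0.176. The interaction of FOXA1 turned to -0.020 without control replicate 2 and -0.014 without KC7F2-treated control replicate 3. That of HIF1A turned to 0.0094 with quantile normalization, 0.176 without control replicate 1, 0.082 without KC7F2-treated control replicate 2 and 0.0028 without KC7F2-treated knockdown replicate 3; neither was called. With the replicate number as a block, 9 genes passed, 6 of the 10 among them, while CD24, S100A9, ATP2B1 and COL17A1 did not. The labels do not say whether a number marks a shared culture. In deviations from the group means, same-numbered libraries correlated at -0.214 to 0.252 and the others at -0.463 to 0.363. Of 12 libraries, 3 correlated best with their own number. Such deviations from means of 3 do not decide whether the libraries were paired. Scaling moved the median of all genes by less than 0.1.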
